A study of Arabidopsis thaliana with 12 samples.

Results

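The genes described here are those of the leucine-rich repeat (LRR) receptor kinase family in Arabidopsis thaliana. They were taken as the TAIR10 protein-coding genes whose annotated product names both a leucine-rich repeat (or LRR) and a kinase, with PXY left out. This gave 163 of 27444 protein-coding genes, of which 22 carried a gene symbol and the other 141 only a locus identifier. The rule reads the wording of the annotation, so well-known receptors annotated by another name are not among the 163 and are given apart, from lists by role. The samples were whole 14-day-old Col-0 seedlings grown at 22 °C with 16 h of light and 8 h of darkness a day, and chromatin was studied by immunoprecipitation and sequencing (ChIP-seq). Trimethylation of lysine 27 of histone H3 (H3K27me3) was profiled in wild type and in the val1val2 double mutant, with 2 libraries each. Binding was profiled with an antibody to GFP in seedlings that carried VAL1-GFP in val1, with 2 libraries analysed, or VAL2-GFP in val2, with 1. The labels give neither the mutant alleles nor the promoter that drives each GFP fusion.

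LRR receptor kinases sit in the plasma membrane, with a repeat domain outside the cell that recognises peptides, hormones or microbial molecules and a kinase domain inside that passes the signal on. In plants they act in growth, organ formation, reproduction and immunity. H3K27me3 is deposited by Polycomb repressive complex 2 and is a mark of silent genes, often genes used in another tissue or stage. VAL1 and VAL2 are B3-domain repressors that recognise the RY element, whose core is TGCATG on one strand and CATGCA on the other, and the study asked how both proteins relate to Polycomb silencing.

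The sequences below show where this core lay near a summit at several LRR kinase genes. The windows below span 61 bases centred on the strongest summit of a list, on the gene's strand, with RY cores in capitals, and were read from the TAIR10.1 reference. They were chosen because the genes are described below and the window holds a core. AT1G56120 is shown at chr1:20993981-20994041 (minus strand, first VAL1 list), AT3G21340 at chr3:7516671-7516731 (minus, first VAL1 list) and AT1G51850 at chr1:19257272-19257332 (minus, VAL2 list). AT4G31250 is shown at chr4:15180761-15180821 (minus, first VAL1 list), IKU2 at chr3:6843538-6843598 (plus, second VAL1 list) and IOS1 at chr1:19213512-19213572 (plus, second VAL1 list). MEE39 is shown at chr3:17025147-17025207 (minus, first VAL1 list), XIP1 at chr5:20165011-20165071 (minus, VAL2 list) and MRH1 at chr4:10259251-10259311 (plus, VAL2 list). Overlapping copies of the core run together, as in AT1G56120, where 4 cores share 12 bases.
AT1G56120: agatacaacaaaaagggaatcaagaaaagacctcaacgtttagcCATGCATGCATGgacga
AT3G21340: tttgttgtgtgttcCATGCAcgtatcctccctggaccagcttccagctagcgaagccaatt
AT1G51850: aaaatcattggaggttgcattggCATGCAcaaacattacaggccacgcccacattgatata
AT4G31250: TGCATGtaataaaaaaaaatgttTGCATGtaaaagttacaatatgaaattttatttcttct
IKU2: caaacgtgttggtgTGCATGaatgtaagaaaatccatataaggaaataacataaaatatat
IOS1: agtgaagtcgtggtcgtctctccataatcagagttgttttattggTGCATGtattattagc
MEE39: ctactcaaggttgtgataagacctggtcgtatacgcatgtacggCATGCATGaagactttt
XIP1: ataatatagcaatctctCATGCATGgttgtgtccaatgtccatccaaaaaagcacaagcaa
MRH1: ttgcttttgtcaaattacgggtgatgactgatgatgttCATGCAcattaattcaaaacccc

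The wild-type lists covered 17.5 and 17.8 Mb with H3K27me3 peaks and the val1val2 lists 19.2 and 19.3 Mb, so the mutant lists were the longer ones. No read totals were given, so the depth behind a value is unknown. The gene VAL1 itself, annotated as HSI2, had no cover in wild type and 41.7% and 43.0% cover in the val1val2 libraries, and VAL2, annotated as HSL1, had 25.4% and 23.6% from none.

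A gene was called marked in a genotype when peaks covered at least 20% of it in both libraries. In wild type 47 of the 163 LRR kinase genes were marked (28.8%), against 25.6% of all protein-coding genes. In val1val2 57 were marked (35.0%), against 30.4% of all genes. A gene marked in both libraries of wild type and in neither of val1val2 was called lost, and the reverse gained. The mark was kept at 42 genes, lost at 5 and gained at 14, while 97 genes were unmarked in all 4 libraries and at 5 the libraries of a genotype disagreed. The 5 lost genes were 10.6% of those marked in wild type, against 7.92% of all marked genes, and the 14 gained genes were 12.2% of those unmarked in wild type, against 8.82% of all unmarked genes. Of the unmarked genes 80 had no H3K27me3 peak at any base in any library. In whole seedlings fewer marked cells and less mark per cell cannot be told apart. For a single gene, 2 libraries per genotype allow no exact permutation p (two-sided) under 0.333, so genotypes are compared below by whether their libraries overlap. Nothing in the labels tells whether the replicates are separate batches of plants, and their spread may be technical.

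**Figure D1:**
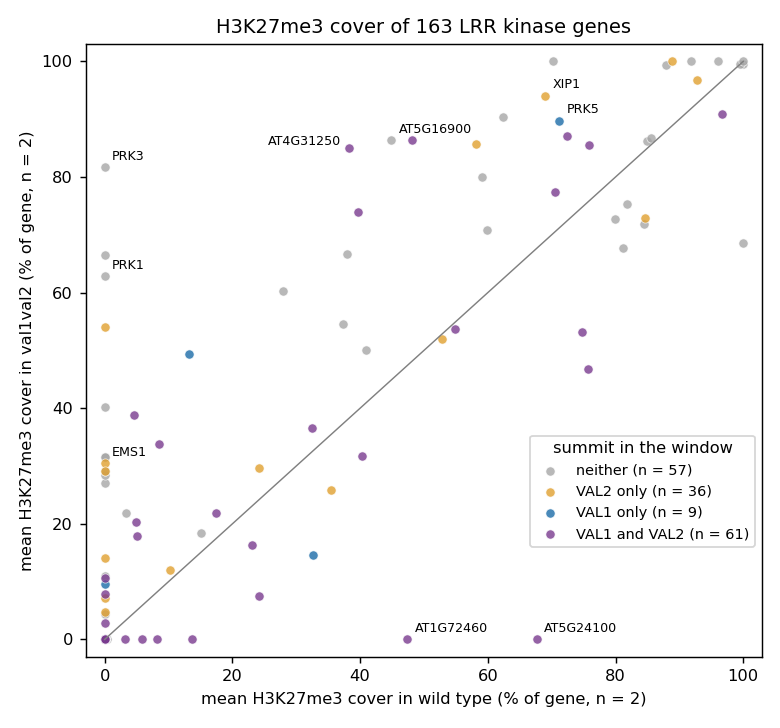
Mean H3K27me3 cover of each of the 163 LRR kinase genes in wild type (x axis, % of the gene) and val1val2 (y axis, % of the gene), each the mean of 2 libraries; colours give VAL1 and VAL2 summits in the window from 1 kb upstream to the gene end, and the line marks equal cover. Most genes sit at or near 0 on both axes, a column of genes at 0 in wild type reaches up to PRK3, and AT1G72460 and AT5G24100 lie on the lower edge.

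The peaks over LRR kinase genes were weak among H3K27me3 peaks. Over the 42 kept genes the strongest overlapping peak had a median −log10 q, in the authors' lists, of 2.79 and 3.17 in the wild-type libraries. Over all 6316 kept genes the medians were 9.85 and 10.3. In val1val2 the medians were 4.91 and 4.56 for the LRR kinase genes and 9.80 and 10.2 for all kept genes. When only peaks with −log10 q of at least 2 were used, 35 LRR kinase genes were marked in wild type (21.5%, against 23% of all genes) and 49 in val1val2 (30.1%, against 26.6%). At a −log10 q of at least 10 only 4 remained in wild type (2.45%, against 11.7% of all genes) and 8 in val1val2 (4.91%, against 12%). The counts of marked genes therefore rest on weak peaks more than those of the genome do.

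LRR kinase genes are long, with a median of 3802 bp against 2078 bp for all protein-coding genes. Among the 8154 genes whose length lay between the 10th and 90th percentiles of the LRR kinase genes (2600 to 5337 bp), 15.8% were marked in wild type, 19.5% in val1val2, and 5.94% of those unmarked gained the mark. Of the 1201 other genes with kinase in the product, 15.5% were marked in wild type and 22.4% in val1val2. Of the 262 genes annotated with leucine-rich repeats but no kinase, 34.0% and 46.6% were marked. These classes were compared after the values of the LRR kinase genes had been seen, and no test was made on them.

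Among the genes that lost the mark, AT5G24100 and AT1G72460 went to no cover at all. AT5G24100 (chromosome 5, 8148544 to 8151385, plus strand) was covered over 69.5% and 65.9% in wild type and 0% in each val1val2 library, with a mean of 67.7% ± 2.56 (SD, n = 2) against 0. Its wild-type peak, 5348 and 5261 bp long, began 867 and 970 bp after the start and ran beyond the gene. AT1G72460 (chromosome 1, 27279341 to 27281830, plus strand) was covered over 49.0% and 45.8% in wild type and not at all in val1val2. For both genes the groups lay far apart.

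The other 3 lost genes changed less. MRH1 (AT4G18640, chromosome 4, 10259600 to 10263822, plus strand), a receptor-like kinase gene required for normal root hairs, went from 22.7% and 25.6% cover to 7.13% and 8.05%. Its wild-type peak lay over the start, from 672 and 649 bp upstream to 956 and 1082 bp inside the gene, and the val1val2 peaks were 301 and 340 bp long. AT3G50230 had 21.4% and 43.8% in wild type against 17.0% and 12.3% in val1val2, and AT1G35710 had 23.1% and 23.0% against 13.2% and 19.3%. A lost call by its rule keeps the genotypes from overlapping. For both genes, however, 1 library of each genotype was within 5 percentage points of the other. The call of AT3G50230 ended when only peaks with −log10 q of at least 2 were used. At a cover minimum of 10% neither gene was called lost. All 5 lost genes had a VAL1 summit in both lists and 4 also a VAL2 summit, with AT3G50230 the exception. Of all lost genes in the genome, 74.6% were VAL1-bound. The lists did not always place the strongest VAL1 summit at the same site. At AT5G24100 it lay 865 and 2028 bp after the start, and at AT3G50230 2501 bp after and 17 bp before it.

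**Figure D2:**
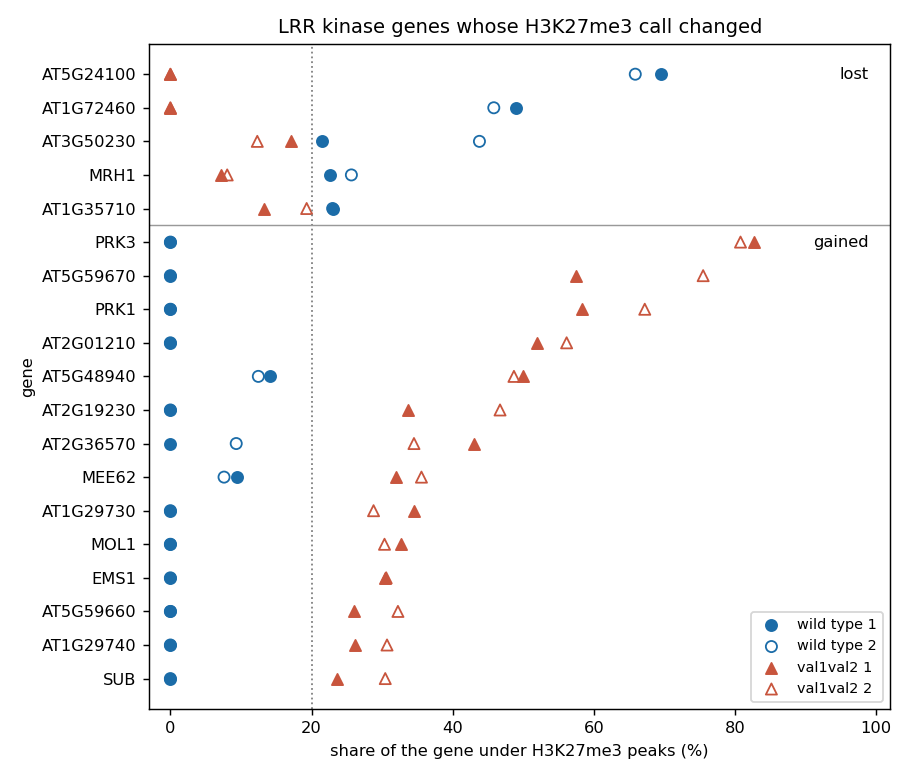
Share of the gene under H3K27me3 peaks (x axis, %) in each of the 4 libraries for the 5 LRR kinase genes that lost and the 14 that gained the mark; circles are wild type, triangles val1val2, filled symbols replicate 1 and open symbols replicate 2, and the dotted line is the 20% needed for a call. AT5G24100 and AT1G72460 fall to 0, and PRK3 shows the largest gain, from 0 to 82.7% and 80.8%.

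The genes that gained the mark included receptors of pollen, anther, cambium and ovule. PRK3 (chromosome 3, 14954363 to 14957031, plus strand), a receptor-like kinase of pollen, had no peak in wild type and 82.7% and 80.8% cover in val1val2, a mean of 81.7% ± 1.32 (SD, n = 2). PRK1 (chromosome 5, 13596824 to 13599269, plus strand), of the same family, had no peak in wild type and 58.4% and 67.2% in val1val2. The PRK1 peak was 4938 and 5136 bp long and began about 3.5 kb upstream, at 3510 and 3492 bp before the start.

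EMS1 (AT5G07280, chromosome 5, 2284830 to 2288855, plus strand), the receptor that specifies the tapetum of the anther, went from no peak to 30.4% and 30.6% cover. It gave the strongest new peaks of the family, with fold enrichments of 3.88 and 3.84 in the authors' lists. They lay over the 5′ part of the gene, from 85 and 42 bp to 1306 and 1272 bp after the start. MOL1 (AT5G51350), a repressor of lateral growth from the cambium, went from no peak to 32.6% and 30.3%, under peaks with fold enrichments of 3.11 and 2.99. SUB (AT1G11130), which encodes the atypical receptor kinase STRUBBELIG of ovule and organ shape, went from no peak to 23.7% and 30.4%.

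MEE62 (AT5G45800), named for arrested embryos in mutants, had a short wild-type peak far from its start and, in val1val2, a further one close to it. Its cover was 9.43% and 7.60% in wild type against 32.0% and 35.6% in val1val2. The wild-type peaks, 351 and 283 bp long, began 2897 and 2886 bp after the start. In val1val2 peaks lay there too, and new ones at 121 to 723 bp and 98 to 732 bp. AT2G36570, whose annotation lists the name PXC1 and which acts in secondary wall formation of xylem, went from 0% and 9.33% to 43.0% and 34.5%. AT5G48940 went from 14.1% and 12.5% to 49.9% and 48.7%. That every val1val2 library lay above every wild-type library in these 3 genes follows from the gained call itself.

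The remaining gained genes had no symbol and no wild-type cover. AT2G01210 reached 52.0% and 56.1%, AT1G29740 26.2% and 30.7%, AT5G59660 26.1% and 32.2%, and AT5G59670 57.4% and 75.5%. AT5G59660 and AT5G59670 are neighbours under a single val1val2 peak of 4884 and 5971 bp and are not independent. AT1G29730 and AT1G29740 likewise lay under a single peak of 4694 bp in val1val2 library 1, and under separate peaks in library 2. AT2G19230 and AT1G29730 fell outside the rule for naming genes and are given after their values were seen, with 33.7% and 46.7%, and 34.4% and 28.8%. When only peaks with −log10 q of at least 2 were used, 9 of the 14 gained calls remained, and those of MEE62, AT1G29740, AT2G01210, AT2G19230 and AT1G29730 ended. At that threshold AT1G29720, PRK5, AT1G51810, MEE39 and AT3G47580, which otherwise kept the mark, were called gained instead. At a threshold of 10 EMS1, MOL1 and PRK3 remained.

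Each gene was divided into 4 equal parts from start to end to show where the mark lay. Over the 14 gained LRR kinase genes the mean cover in val1val2 was 73.0% and 69.6% in the first part, 38.3% and 37.5% in the second, 22.1% and 35.4% in the third and 33.1% and 37.0% in the last. Over the 1763 gained genes of the genome it was 62.9% and 64.7%, 72.4% and 73.5%, 58.5% and 60.3%, and 38.01% and 39.3%. The middle parts thus had less cover in the LRR kinase genes than in all gained genes, and the first part had more. The gained LRR kinase genes were long (median 4111.5 bp), and a peak of a given size fills a smaller share of a long gene. Some of the 14 are neighbours that share a peak, as given above. No genes of like length were profiled, so the part of length was not tested, here or for the kept genes below. Over the 42 kept LRR kinase genes the cover was from 57.7% to 76.2% in every part of the gene in wild type and from 68.2% to 83.5% in val1val2. Over all kept genes it was from 64.4% to 89.8% in wild type and from 67.6% to 91.3% in val1val2. The LRR kinase genes thus had less cover than all kept genes in every part, except the last part in val1val2. Among the 40 kept genes with introns, the median cover in wild type was 73.5% and 79.1% of the coding sequence and 68.2% and 73.5% of the introns.

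**Figure D3:**
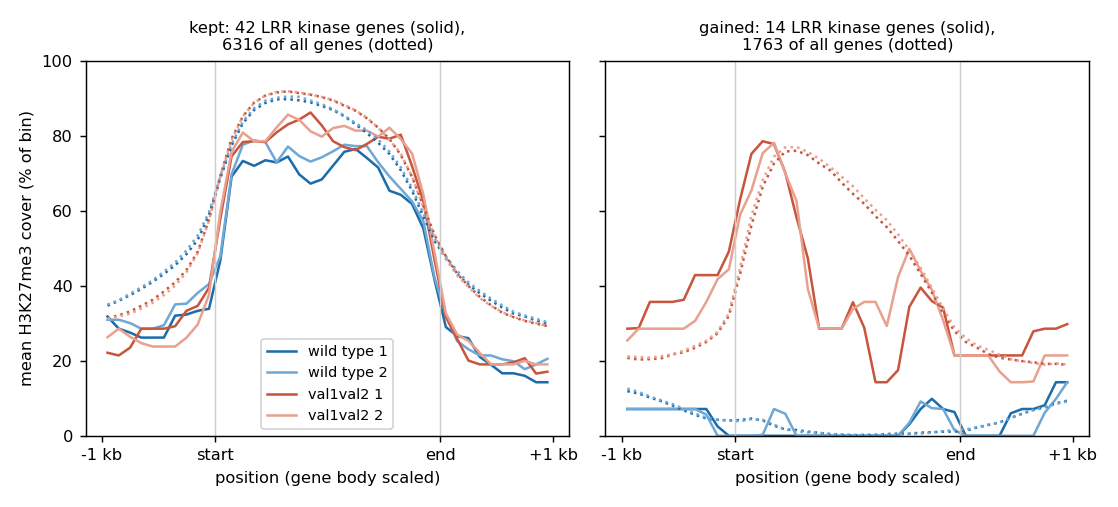
Mean H3K27me3 cover (y axis, % of each bin) along the scaled gene body and 1 kb to each side (x axis) in the 4 libraries, for kept (left) and gained (right) genes; solid lines are LRR kinase genes and dotted lines all genes of the same call. The val1val2 lines of the 14 gained LRR kinase genes peak near the start and drop in the second of 4 equal parts, where those of all gained genes are highest.

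Of the 42 LRR kinase genes that kept the mark, 23 had higher cover in both val1val2 libraries than in either wild-type library (54.8%, against 32.4% of all kept genes) and 7 had lower cover (16.7%, against 22%). Over all 163 genes, 50 had higher cover without overlap (30.7%, against 16.6% of all genes) and 15 lower cover (9.20%, against 8.4%). The val1val2 lists also covered more of the genome, and the part of this in the shares was not tested. The median difference over the 42 kept genes was 5.55 percentage points of the gene, against 0 over all kept genes. Among the 1132 kept genes in the length range given above, 39.7% had higher cover without overlap and 26.6% lower cover. Their median difference was 0.975 percentage points.

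AT4G31250 (chromosome 4, 15178925 to 15181937, minus strand) had the largest difference among kept genes. It had 39.0% and 37.3% cover in wild type and 83.9% and 86.1% in val1val2, so the libraries did not overlap. Its wild-type peak ended 1175 and 1124 bp inside the gene and the val1val2 peak 2527 and 2592 bp inside. The fold enrichment of that peak was 4.02 and 4.05 in wild type against 2.76 and 2.49 in val1val2, so the val1val2 peak was broader and its enrichment lower.

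AT5G16900 had 47.1% and 42.7% in wild type against 85.7% and 87.0% in val1val2. XIP1 (AT5G49660), which encodes the receptor CEPR1 of C-terminally encoded peptides, had 68.3% and 69.6% in wild type against 95.5% and 92.6% in val1val2. In wild type it had a peak over its start, ending at 969 and 877 bp, and another from 2109 and 1969 bp on, whereas in val1val2 a single peak ran from 161 and 264 bp to beyond the gene. The largest falls among kept genes were at AT3G46400, from 100% in both libraries to 70.3% and 66.9%, and AT1G07550, from 62.3% and 89.1% to 45.7% and 47.8%. These 2 were picked after their values were seen.

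The 6 pollen receptor kinase genes with an annotated name were all among the 163. PRK6, the receptor with which pollen tubes sense the attractant peptides of the ovule, was covered over 85.8% and 85.4% in wild type against 84.5% and 89.1% in val1val2, and these libraries overlapped. PRK5 had 70.1% and 72.3% in wild type against 87.3% and 92.3% in val1val2. Its wild-type peaks were weak, with −log10 q of 0.609 and 1.46 against 8.43 and 8.35 in val1val2. With only peaks of −log10 q of at least 2, PRK5 had no wild-type cover and was called gained. PRK4 had 9.99% and 0% against 17.84% and 17.95%, below the level for a call. PRK2A had 6.75% and 0% against 24.1% and 19.7%, so that its val1val2 libraries fell on both sides of it. With PRK1 and PRK3, 5 of the 6 had higher cover in both val1val2 libraries than in either wild-type library, as had 30.7% of the 163 genes and 16.6% of all genes. PRK5 and PRK4 were VAL1-bound and the other 4 were not. AT5G45840 (MDIS1) was on the same list and among the 163, but the annotation lacks that name. It kept the mark and went the other way, from 36.4% and 34.6% in wild type to 26.2% and 25.5% in val1val2.

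Of the other named receptors, most had no mark in seedlings. GSO1 and GSO2, receptors of the root barrier and embryo cuticle, had no H3K27me3 peak in any library, and neither had FEI1 and FEI2, of cell wall function in roots. SOBIR1, an adaptor kinase of immune receptor-like proteins, RUL1, of lateral growth, and SARK, named for leaf senescence, also lacked any peak. IKU2, of endosperm and seed growth, had 14.8% and 12.6% cover in wild type and 0% and 0.0553% in val1val2, below the level for a call. A wild-type peak at 23 to 453 bp and 11 to 360 bp after its start was in neither val1val2 list. The VAL1 summits lay 81 and 94 bp and the VAL2 summit 105 bp upstream of the start, beside that peak and near the core shown above. IOS1, of responses to oomycetes, had 16.0% and 18.8% in wild type against 19.2% and 24.7%, and MEE39, another gene named for embryo arrest, had 85.4% and 66.1% against 84.7% and 86.2%. The genotypes overlapped for MEE39 and not for IOS1 or IKU2. Of the 22 genes with a symbol, 6 gained the mark, or 35.3% of the 17 unmarked in wild type, against 8.16% of the 98 without a symbol; this split was not tested.

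Marked genes were more frequent in tandem arrays than outside them. An array was taken as neighbouring LRR kinase genes with at most 1 other protein-coding gene between them, a definition chosen after the data were seen. Of the 163 genes 48 lay in arrays, 34 of them in 8 arrays of 3 or more and 14 in 7 pairs. In wild type 52.1% of the 48 were marked, against 19.1% of the 115 outside arrays, and in val1val2 66.7% against 21.7%. All 5 losses were outside arrays and 6 of the 14 gains inside them. Neighbours can share a peak, and in each library between 4 and 8 LRR kinase genes shared their strongest one. Among the array gains, AT5G59660 and AT5G59670 shared a peak in both val1val2 libraries. AT1G29730 and AT1G29740 did so in val1val2 library 1, so these gains are not independent.

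In the array AT2G28960 to AT2G29000 (chromosome 2, 12437718 to 12465050) all 4 LRR kinase genes were marked in every library, with mean cover from 81.8% to 99.9% in wild type and from 72.9% to 99.6% in val1val2. All 5 of AT3G46330 (MEE39) to AT3G46370 (chromosome 3, 17020718 to 17055514) were also marked in every library. Their mean cover ranged more widely, from 40.97% to 99.4% in wild type and from 50.02% to 99.5% in val1val2. With equal numbers of peaks per list, AT3G46340 was called lost, with 80.5% and 81.9% in wild type against 0% and 1.03%. With only peaks of −log10 q of at least 2, MEE39 had no wild-type cover and was called gained. The array AT1G51790 to AT1G51860 (chromosome 1, 19206615 to 19261794) was mixed: 5 of 8 genes were marked in both genotypes, and AT1G51860 had 6.47% and 0% in wild type and none in val1val2. AT1G56120 to AT1G56145 had no marked gene in either genotype, and 3 of its 4 genes were VAL1-bound. AT1G29720 to AT1G29740 had 1 marked gene in wild type and 3 in val1val2, and none of them was VAL1-bound.

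The 42 kept genes had a median of 12 introns, against 3 in the 97 unmarked, 1 in the 5 lost and 1 in the 14 gained genes. Of the 74 LRR kinase genes with 10 or more introns 39.2% were marked in wild type, whereas of all 3510 protein-coding genes with as many introns 7.92% were. Sequence repeated elsewhere in the genome made up little of these genes. The share of 31-base words found more than once had a median of 0.468% in the kept genes and was at most 21.1%, at AT2G14440.

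**Figure D4:**
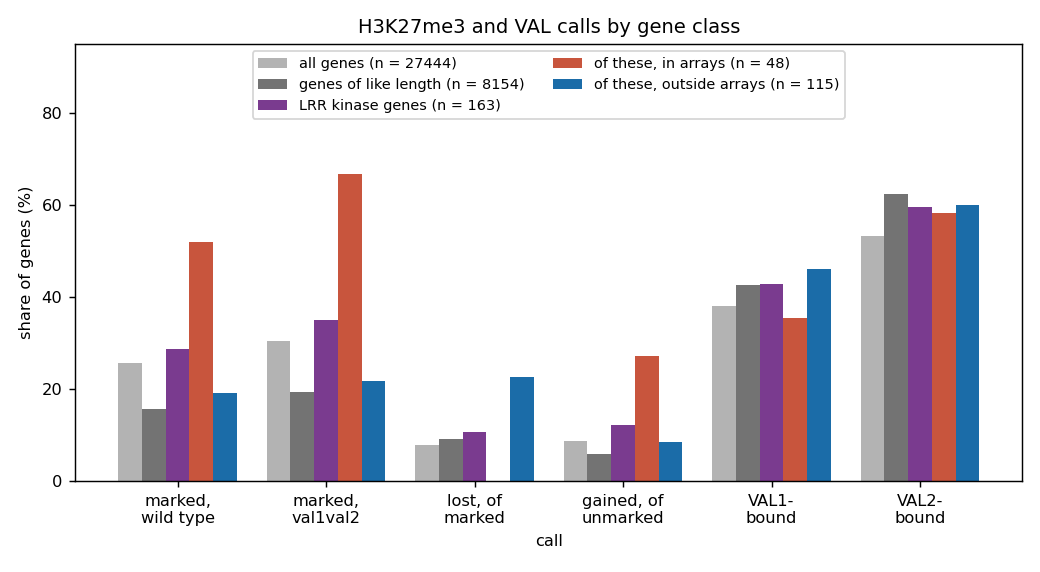
Share of genes (y axis, %) with each call for all protein-coding genes, genes of like length, the 163 LRR kinase genes, and those inside and outside arrays; shares of lost genes are of those marked in wild type and shares of gained genes of those unmarked there. Members of arrays have the highest share marked in wild type, 52.1%, with no loss among them, and VAL1 and VAL2 shares differ less between the classes.

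Binding was called from summits between 1 kb before the start of a gene and its end. VAL1 summits lay in this window at 84 LRR kinase genes in the first list and 108 in the second, and at 70 in both (42.9%, against 38.2% of all genes). A gene bound in both lists did not need the same site in each. VAL2, with 1 list, had a summit at 97 (59.5%, against 53.4%). Both proteins were bound at 61 genes and neither at 57. Among genes of like length 42.6% were VAL1-bound and 62.5% VAL2-bound. Most summits were weak: at a −log10 q of at least 10, VAL1 was bound at 3 genes (1.84%, against 3.32%) and VAL2 at 12 (7.36%, against 6.8%).

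Binding differed with the H3K27me3 call. All 5 lost genes were VAL1-bound, as given above. VAL1 was bound at 13 of the 42 kept genes (30.95%, against 44.1% of all kept genes), at 3 of the 14 gained genes (21.4%, against 35.6%) and at 47 of the 97 genes unmarked in all libraries (48.5%, against 34.9%). The 3 bound gained genes were MEE62, AT2G36570 and AT5G48940. Their strongest summits in the first and second VAL1 list lay close together at MEE62, 2270 and 2212 bp after the start. They lay apart at AT2G36570, 394 and 2604 bp after the start, and at AT5G48940, 3945 bp after and 319 bp before it. Unmarked LRR kinase genes thus made up 47 of the 70 bound ones, where unmarked genes made up 6223 of the 10473 VAL1-bound genes of the genome. Of these 47, 38 had no H3K27me3 peak at any base in any library, as had 80 of all 97 unmarked LRR kinase genes.

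AT1G56120 carried the strongest VAL1 site of the family. The summits lay 439 and 437 bp upstream of the start with fold enrichments of 7.82 and 15.9, and the VAL2 summit 457 bp upstream with 4.69. Among the strongest summits of all genes with one, these ranked 57 in the first VAL1 list and 50 in the second. The gene itself was hardly covered by H3K27me3, over 5.74% and 6.07% in wild type and not at all in val1val2. The wild-type peak, 1533 and 1603 bp long, ran from 1163 and 1212 bp upstream to 369 and 390 bp inside the gene, and thus over the VAL1 summits.

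AT3G21340 had VAL1 summits 628 and 598 bp upstream, with fold enrichments of 4.53 and 6.84, and the highest VAL2 enrichment of the family, 6.35. It stayed marked, over 96.5% and 96.7% in wild type against 91.2% and 90.4% in val1val2. AT1G51850 had summits 401 and 361 bp upstream with 3.20 and 5.77, and 6.12 for VAL2, and stayed marked as well, over 71.0% and 73.7% against 77.1% and 97.1%. These 2 and AT1G56120 were the 3 genes bound by VAL1 at a −log10 q of at least 10.

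Of the next 5 genes in order of VAL1 enrichment, 3 had their summits inside the gene. AT4G31250 had its summits in an intron, 1146 and 1089 bp after the start, with fold enrichments of 2.68 and 6.08. AT1G35710 had them in the 3′ UTR with 2.73 and 5.08, inside the span of its wild-type H3K27me3 peak, which ran from 3015 and 3022 bp to 3986 and 3989 bp after the start. MEE62 had them in an intron with 2.40 and 4.60, 2270 and 2212 bp after the start and apart from its val1val2 peak. AT1G51860, with 2.51 and 5.39, and AT1G68400, with 2.85 and 4.68, had them upstream. In every one of these 8 genes the second list gave the higher enrichment.

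The gene parts under the strongest summits differed between lists. In the first VAL1 list 26 of 84 lay upstream of the gene, 20 in the 5′ UTR, 26 in coding exons, 9 in introns and 3 in the 3′ UTR. In the VAL2 list 61 of 97 lay upstream and 6 in coding exons. Within 500 bp of the start lay 51.2% and 59.3% of the VAL1 summits and 62.9% of the VAL2 summits, against 51.4%, 65.7% and 67.6% over all genes.

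**Figure D5:**
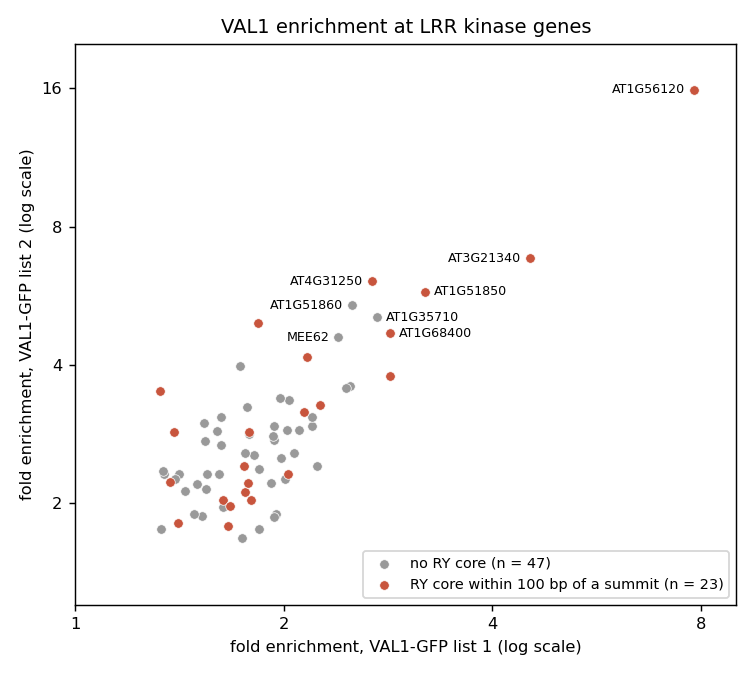
Fold enrichment in the authors' lists of the strongest VAL1 summit in the first (x axis, log scale) and second (y axis, log scale) VAL1-GFP list at the 70 LRR kinase genes bound in both; red points have an RY core within 100 bp of a summit and grey points none. AT1G56120 stands apart at 7.82 and 15.9, and 5 of the 8 genes with the highest mean enrichment have a core.

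An RY core (TGCATG or CATGCA, either strand) lay within 100 bp of the strongest VAL1 summit of at least 1 list at 23 of the 70 bound LRR kinase genes (32.9%, against 43.4% of all VAL1-bound genes). It lay near the summits of both lists at 12 of the 70 (17.1%, against 27.2%). Among the 8 genes with the highest VAL1 enrichment, 5 had it near both. In a promoter window of 250 bases before to 50 after the start, 15 of the 163 genes held a core (9.20%, against 9.72% of all genes). A match in these windows is a description of the letters and not a measured binding site.

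The remaining pathway genes were counted from lists by role, which held 104 genes whose names the annotation gives. These lists were chosen with earlier results of these data known. Of 70 receptor kinase genes in them, 22 were among the 163 genes; over all 70, 4 kept the mark, 1 lost it, 9 gained it, 51 were unmarked in all libraries and 5 had libraries that disagreed. Of all protein-coding genes, 23% kept the mark, 2.03% lost it, 6.42% gained it and 65% were unmarked in all libraries. The gains outside the 163 genes were ERL2, of the ERECTA family of stomatal and organ growth receptors, with 14.1% and 13.0% against 27.1% and 24.7%, SRF1, of the STRUBBELIG family, with none against 43.2% and 35.1%, and PXC2, with none against 27.1% and 30.8%. FLS2, the receptor of bacterial flagellin, had no cover in wild type and 22.2% and 12.5% in val1val2. All 5 SERK co-receptor genes and all 3 abscission receptor genes on the lists were unmarked in every library.

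Of 21 genes for peptide ligands of LRR receptors, 11 kept the mark, 1 gained it, 7 were unmarked and 2 had libraries that disagreed, where 23% of all genes kept it, 6.42% gained it and 65% were unmarked. CLV3, the stem cell peptide, was covered over 100% in all 4 libraries, whereas MOL1 and the other 8 genes of the meristem receptor list were unmarked in wild type. The 1 gain was at TPD1, the ligand of EMS1, which had 0% and 8.55% in wild type against 20.2% and 29.7% in val1val2. Of the 7 genes for cytoplasmic partners of LRR receptors on the lists, 3 kept the mark, 3 were unmarked in all libraries and 1 gained it. That gain was at BIK1, the cytoplasmic kinase downstream of immune receptors, which went from no peak to 73.1% and 68.4%. The ligand genes are short, with a median length of 952 bp, so that a peak of a given size covers a larger share of them.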

How the data were processed

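Peak lists of 7 of the 12 samples were used; the second VAL2-GFP sample, the inputs and RNA-seq were not analysed here. Per the submitters' processing notes, the build was TAIR10 and the tools named were MACS2, TopHat2 2.1.1, Cufflinks 2.2.1 and Cuffdiff; for MACS2 no version or options, and for the ChIP reads no aligner, is given in the sources used here. The lists deposited by the authors hold a pileup signal (read coverage), a fold enrichment (a ratio over local background), and significance as −log10 p and −log10 q. Spreadsheet errors had replaced the names of these last columns, so the MACS2 order was used; the values read as −log10 q never exceeded those read as −log10 p. Peaks were called per sample, and fold enrichments quoted are the authors' own values.

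Genes, introns and sequences came from the TAIR10.1 RefSeq annotation and genome, and all peaks lay within its chromosomes. Overlapping peaks were merged, and cover was the share of a gene, start to end, under peaks. Python 3.11.15 with numpy 2.4.6 and pandas 2.3.3 was used, and the calls were checked on simulated peaks. The calls come from overlap, with the share over all genes as background; alternatives varied the cover minimum, peak threshold, window, libraries, peak number and members. Named genes were the changed ones (at most 12 per direction, by fold enrichment), the 8 with the highest mean VAL1 enrichment, all with a symbol, and from each role list the changed members and up to 4 others by difference in cover. Members, lists and rules were chosen with earlier results of these data known. The lists held 125 genes; 21 whose names the annotation lacks were not counted.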

Additional observations from a re-analysis of the deposited data

How the results depend on the processing

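Of the 163 LRR kinase genes, 47 were marked in wild type, 57 were marked in val1val2, 5 lost and 14 gained the mark, and 70 and 97 were bound by VAL1 and VAL2. A cover minimum of 50% gave 28 marked in wild type, 2 lost and 11 gained; 1 of those 2 (AT5G24100) and 4 of those 11 were among the genes reported as lost or gained. With only peaks of −log10 q of at least 10, 4 were marked in wild type, 8 in val1val2, 2 lost and 6 gained the mark; none of those 2 and 3 of those 6 were among the genes reported as lost or gained. For binding, summits with −log10 q of at least 2 left 28 genes for VAL1, and at least 10 left 3 for VAL1 and 12 for VAL2. Summits inside the gene alone left 46 for VAL1 and 52 for VAL2, and a window from 1 kb upstream to 200 bp after the start left 37 for VAL1. Leaving out 1 library gave 47 to 48 marked genes in wild type, 58 to 60 in val1val2, 5 to 5 lost, 14 to 17 gained, and 84 to 108 bound by VAL1. The other alternatives, among them a cover minimum of 10%, equal numbers of 8324 peaks per list and wider membership, stayed within 1.5 times of these counts. The genes changed all the same: at the 10% minimum 4 were lost and 18 gained, and 3 and 13 of these were among those reported. The lost calls of AT3G50230 and AT1G35710 and the gained call of AT5G48940 ended there. Among the differences in cover of the 41 named genes, 11 moved beyond the spread between replicates with −log10 q of at least 2 and 24 with at least 10. None of a gene called lost or gained changed sign. That of PRK6, which kept the mark, went from 1.25 to −1.05 percentage points without val1val2 library 2. The causes of these shifts were not tested beyond the smaller number of peaks that a threshold leaves. No paired analysis was possible because the calls come from overlap and from no test. Depth is unknown, so weak and absent peaks cannot be separated by read number.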
